A study of Mus musculus with 4 samples.

Results

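Across the autosomes of mouse embryonic stem cells, 422 windows of 1 Mb held no peak of dimethylated lysine 4 of histone H3 (H3K4me2). They are called peak-free windows here. The autosomes were divided into 2482 windows of 1 Mb from their first base, and 2375 of these held at least 500 reads of the Input library. The 422 peak-free windows were those of the 2375 in which no peak of the deposited H3K4me2 list had its centre, or 17.8% of them. No edge of an H3K4me2 peak reached into them either. The other 1953 windows held a median of 10 H3K4me2 peaks and up to 140.

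The cells were R1, a 129SV embryonic stem line grown on gelatin with LIF, the cytokine that keeps such cells undifferentiated, at passages 13 to 18. From their fixed chromatin DNA was recovered with an LSD1 antibody, with an H3K4me2 antibody or with control IgG, and a portion taken before that step (Input) was sequenced beside them. Each of these 4 groups held 1 library, with 5833862 LSD1 reads, 6416657 H3K4me2 reads, 4755619 IgG reads and 3801082 Input reads, so no difference has a replicate check and no p-value is given. The labels identify the LSD1 antibody by a catalogue number that belongs to an H3K27me3 antibody elsewhere, and LSD1 below therefore names the library as it is labelled. Values are reads per 1000000 reads of a library (RPM), or ratios of RPM. The exact 95% intervals cover counting error only, and not differences between cultures or between windows.

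H3K4me2 is laid down at active and poised promoters and at enhancers, and LSD1 (Kdm1a) takes off such mono- and dimethyl marks as part of the CoREST and NuRD complexes. Mammalian chromosomes alternate between gene-rich stretches, in which such marks are frequent, and long gene-poor stretches that tend to be replicated late in S phase and to lie at the nuclear lamina. In chromatin immunoprecipitation the reads of such stretches are mostly background, which a control IgG library also samples, though not necessarily to the same extent.

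Peak-free windows were found on every autosome, but unevenly. Chromosome 14 had the highest share, with 29 of 114 windows (25.4%), and chromosome 11 the lowest, with 11 of 119 (9.24%). Chromosome 11 also had the most H3K4me2 peaks per Mb, 24.4, against 9.46 on chromosome 14. The chromosomes did not all follow that order: on chromosome 13 only 14 of its 116 windows (12.1%) were peak-free while its H3K4me2 peaks were at 10.8 per Mb. Along the chromosomes, with the span that holds reads cut into 3 equal parts, 18.95% of windows were peak-free in the first part, 20.7% in the middle part and 13.7% in the last.

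**Figure D1:**
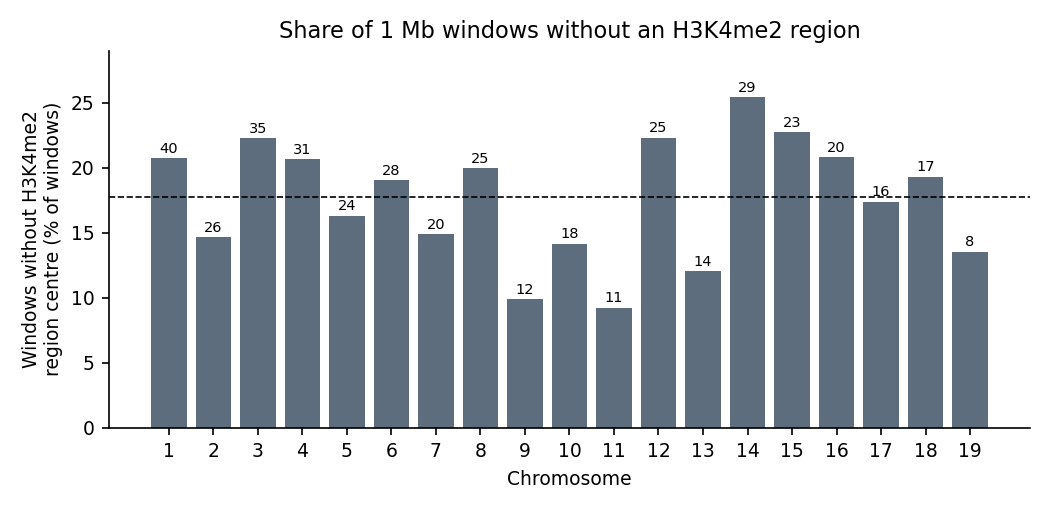
Share of 1 Mb windows with at least 500 Input reads that held no H3K4me2 peak centre, in percent, for each autosome; the number over a bar is the count of peak-free windows and the dashed line is the share over all autosomes, 17.8%. Chromosome 14 is highest, with 29 windows, and chromosome 11 lowest, with 11.

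The 422 windows formed 238 runs of windows that touch each other. Of the runs, 139 were single windows, 80 had 2 to 3 windows and 19 had 4 or more, and these 19 held 99 of the windows. The windows on either side of a run were themselves poor in H3K4me2 peaks, with a median of 5 peaks in 424 such windows against 12 in the 1529 windows that touched no run. Of the 424 neighbours, 44 nevertheless held more than 20 peaks, against 501 of the 1529 windows that touched no run. For 237 of the runs an H3K4me2 peak lay on both sides, and the stretch between these flanking peaks ran from 1.03 to 12.4 Mb with a median of 2.19 Mb.

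The longest run, on chromosome 15 from 13000001 to 25000000, had 12 windows. Its flanking H3K4me2 peaks ended at 12893725 and began at 25256405, 12.36 Mb apart, and the windows on either side held 25 and 33 H3K4me2 peaks. This was the longest stretch without an H3K4me2 peak around any run, bordered directly by peak-rich windows. The run held 12361 LSD1, 10275 H3K4me2, 13399 IgG and 14507 Input reads, so that LSD1 stood at 0.555 of Input (0.542 to 0.569) and IgG at 0.738 (0.721 to 0.756). Its single windows ranged from 0.493 to 0.676 for LSD1 relative to Input. No LSD1 or IgG peak had its centre in it.

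The next run, on chromosome 5 from 55000001 to 63000000, had 8 windows in a stretch of 8.768 Mb. It held 8474 LSD1, 6900 H3K4me2, 9101 IgG and 10277 Input reads, with LSD1 at 0.537 of Input (0.522 to 0.553). Unlike the run on chromosome 15 it was bordered by sparse windows, with 4 and 1 H3K4me2 peaks. On chromosome 6, the 7 windows from 74000001 to 81000000 lay in 8.688 Mb without an H3K4me2 peak and had LSD1 at 0.627 of Input (0.603 to 0.652). Chromosome 4 had a run of 6 windows from 74000001 to 80000000, with LSD1 at 0.605 of Input (0.586 to 0.625), and chromosome 14 had another from 88000001 to 94000000, at 0.559 (0.541 to 0.578).

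Among the runs of 5 windows, that on chromosome 19 from 48000001 to 53000000 had the densest borders, with 54 and 42 H3K4me2 peaks in the windows beside it, and the highest LSD1 level of the 10 longest runs, 0.673 of Input (0.650 to 0.697). The run on chromosome 14 from 107000001 to 112000000 had the lowest, 0.530 (0.510 to 0.550). The other runs of 5 windows were on chromosome 1 from 25000001 to 30000000, at 0.572 (0.551 to 0.594), with 1 LSD1 peak, and on chromosome 17 from 58000001 to 63000000, at 0.574 (0.553 to 0.596). The tenth run, on chromosome 1 from 46000001 to 50000000, was the first of 10 runs of 4 windows, at 0.572 (0.548 to 0.596). In these 10 runs IgG lay between 0.708 and 0.831 of Input and LSD1 between 0.729 and 0.810 of IgG, so that every one of them was below Input in the control as well.

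In reads, the peak-free windows were low in all 4 libraries, most of all in H3K4me2 and LSD1 and least in Input. Over the 422 windows the LSD1 library held 478594 reads, H3K4me2 393994, IgG 501423 and Input 519795. Per Mb LSD1 was at 194 RPM, H3K4me2 at 146 RPM, IgG at 249.9 RPM and Input at 324 RPM. In the other 1953 windows LSD1 was at 458 RPM per Mb, H3K4me2 at 469, IgG at 445 and Input at 425. Input itself was thus lower in peak-free windows, where its reads per window ranged from 503 to 2815 with a median of 1250, against a median of 1601 in the other windows.

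Relative to Input, LSD1 was at 0.600 (0.598 to 0.602) in peak-free windows and at 1.076 (1.075 to 1.078) in the others. IgG was at 0.771 (0.768 to 0.774) in peak-free windows and at 1.045 (1.044 to 1.047) in the others, so the control was lower in peak-free windows too, though by less. LSD1 relative to IgG was at 0.778 (0.775 to 0.781) in peak-free windows and 1.030 (1.028 to 1.031) in the others. The H3K4me2 library was at 0.449 of Input (0.447 to 0.451) in peak-free windows and at 1.103 (1.102 to 1.105) in the others; since the windows were chosen on its peaks, this is a description. The ratio in peak-free windows divided by that in other windows was 0.557 for LSD1 to Input, 0.738 for IgG to Input and 0.756 for LSD1 to IgG, figures that do not depend on the library sizes. Scaling to reads outside all deposited peaks, by contrast, raises every LSD1 to Input ratio by 0.14 and every H3K4me2 to Input ratio by 0.30 on the log2 scale.

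The contrast was also present outside peaks. With reads in any deposited peak left out, LSD1 to Input was 0.600 in peak-free windows and 0.968 (0.967 to 0.970) in the others, and LSD1 to IgG was 0.778 in peak-free windows and 0.943 (0.942 to 0.945) in the others. The peak-free value divided by the other was then 0.619 for LSD1 to Input and 0.824 for LSD1 to IgG. IgG to Input, at 0.751, hardly differed from the 0.738 obtained with all reads. Reads outside called peaks are not all background. In the other windows 76180 bins of 1 kb outside peaks held at least 10 H3K4me2 and fewer than 10 Input reads. These bins held 655727 of the 4611431 LSD1 reads outside peaks, at 2.64 times Input. Peak-free windows had 597 such bins. How much of the contrast outside peaks comes from these bins was not tested.

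LSD1 to Input ranged from 0.462 to 0.974 over the 422 windows, with a median of 0.585 and quartiles of 0.544 and 0.641, against a median of 0.985 and quartiles of 0.801 and 1.21 in the other windows. IgG to Input had a median of 0.756 (quartiles 0.718 and 0.809) in peak-free windows and 1.02 in the others. The spread of log2 LSD1 to Input over peak-free windows, an SD of 0.17, was 2.85 times the SD that counting alone gives at these depths. For LSD1 to IgG the SD was 0.08, only 1.30 times that of counting, against 4.91 times in the other windows. The lowest LSD1 to IgG ratio of a peak-free window was 0.680 and the highest 0.930. Over the 422 windows log2 LSD1 to Input and log2 IgG to Input had a Pearson r of 0.714 and a Spearman rho of 0.652, against 0.883 and 0.886 over the other windows, with Input reads of one strand used for one ratio and of the other strand for the other so that they share no read. LSD1 followed the H3K4me2 library more closely than IgG. For log2 LSD1 to Input and log2 H3K4me2 to Input, Pearson r was 0.796 and Spearman rho 0.764 over the 422 windows. Over the other windows they were 0.966 and 0.965. These values are a description across windows of the same libraries.

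Of the 422 windows, 418 had LSD1 below 0.8 of Input, against 38.0% of all 2375 windows. For IgG relative to Input the count was 299 of 422, against 20.4% of all windows, and for LSD1 relative to IgG it was 298, against 18.0%. For H3K4me2 relative to Input, on which the choice of windows rests, it was all 422, against 49.4%. No peak-free window exceeded the inverse of 0.8 in any of these ratios, against 18.0% of all windows for LSD1 to Input, 8.42% for IgG to Input, 5.98% for LSD1 to IgG and 22.1% for H3K4me2 to Input.

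The 4 windows at or above 0.8 for LSD1 to Input were named for that value after it was seen, beyond the 3 that the rule for named windows takes. The window on chromosome 13 from 57000001 to 58000000 held 2314 LSD1, 1919 H3K4me2, 2253 IgG and 1548 Input reads, which put LSD1 at 0.974 of Input (0.913 to 1.04) and IgG above Input, at 1.16 (1.09 to 1.24). The window on chromosome 12 from 108000001 to 109000000 had LSD1 at 0.909 (0.850 to 0.973) and IgG at 1.15 (1.08 to 1.23), and that on chromosome 7 from 136000001 to 137000000 had 0.852 (0.792 to 0.916) and 1.05 (0.975 to 1.13). Each of the 3 was a single window between windows with 14 to 39 H3K4me2 peaks, and in each LSD1 was still below IgG, at 0.837, 0.790 and 0.812. The last of the 4, on chromosome 3 from 31000001 to 32000000, had LSD1 at 0.834 of Input.

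At the other end, the window on chromosome 13 from 87000001 to 88000000 held 917 LSD1, 770 H3K4me2, 996 IgG and 1293 Input reads, with LSD1 at 0.462 of Input (0.424 to 0.503) and IgG at 0.616 (0.566 to 0.669). It was followed by the window on chromosome 14 from 108000001 to 109000000, inside a run of 5, at 0.464 (0.427 to 0.505). The window on chromosome 19 from 13000001 to 14000000 was as low, at 0.470 (0.430 to 0.514), although it was a single window between windows with 12 and 10 H3K4me2 peaks.

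**Figure D2:**
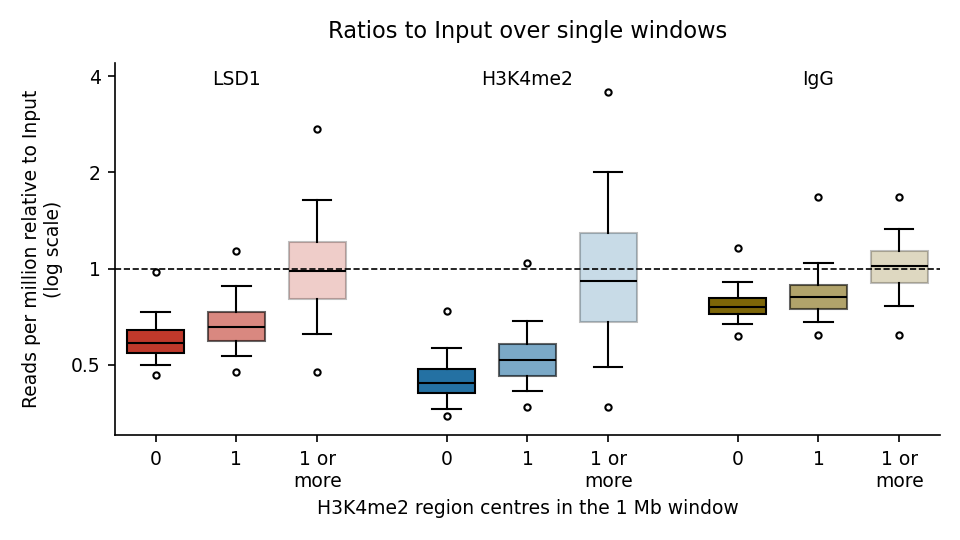
RPM relative to Input (log scale) over single 1 Mb windows for LSD1, H3K4me2 and IgG, in windows with 0, exactly 1, and 1 or more H3K4me2 peak centres; boxes span the quartiles with the median as a line, whiskers the 5th to 95th percentile, and points the lowest and highest window. In windows with 0 centres the medians are 0.585 for LSD1, 0.436 for H3K4me2 and 0.756 for IgG, all under the dashed line at 1.

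The windows most like them, the 196 with exactly 1 H3K4me2 peak centre, had LSD1 at 0.679 of Input (0.675 to 0.683) and IgG at 0.836 (0.831 to 0.840), against 0.600 and 0.771 in peak-free windows. Both ratios went on upwards with the number of H3K4me2 peaks. In windows with 2 to 5 peaks LSD1 was at 0.788 and IgG at 0.907, in those with 6 to 20 at 1.01 and 1.04, and in the 545 with more than 20 at 1.43 and 1.20. Outside all peaks the LSD1 values were 0.600 with no peak, 0.669 with 1, 0.768 with 2 to 5, 0.945 with 6 to 20 and 1.20 with more than 20, where IgG was at 1.16. LSD1 to IgG outside peaks was 0.778 with no peak and 1.04 with more than 20. Peak-free windows lay at the low end of this order, next to the windows with 1 peak.

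**Figure D3:**
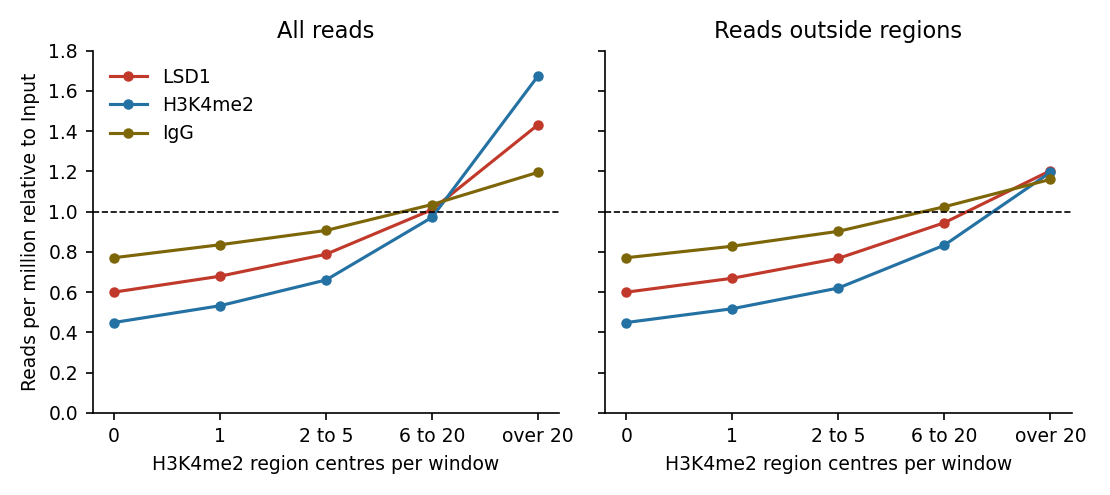
RPM relative to Input, pooled over 1 Mb windows with 0, 1, 2 to 5, 6 to 20 and over 20 H3K4me2 peak centres, with all reads (left) and with reads outside all deposited peaks (right). All 3 libraries are lowest in windows without a peak centre, and outside peaks LSD1 goes from 0.600 with no peak to 1.20 with over 20.

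Pooled over windows, LSD1 was higher in single-window runs than in longer ones and higher in the outermost windows of a run than further in. Single-window runs had LSD1 at 0.631 of Input (0.627 to 0.635), runs of 2 to 3 windows at 0.587 (0.583 to 0.590) and runs of 4 or more at 0.581 (0.576 to 0.586), and the last 2 intervals overlap. Single runs did not follow their length: the run of 7 windows on chromosome 6, at 0.627, and that of 5 on chromosome 19, at 0.673, were above the pooled value of runs of 2 to 3 windows. In runs of more than 1 window the outermost windows stood at 0.595 (0.592 to 0.599), the second windows from an edge at 0.562 (0.556 to 0.568) and the 23 windows further in at 0.549 (0.540 to 0.559), whose interval overlaps that of the second windows. These 23 windows came from the 9 runs of 5 or more windows, and LSD1 stood at 0.557 (0.545 to 0.570) in the 15 of them outside the longest run. IgG to Input was 0.766, 0.730 and 0.730 along the same order. LSD1 to IgG moved least, with 0.777 (0.772 to 0.781) in the outermost and 0.752 (0.739 to 0.766) in the innermost windows. All these intervals leave out the spread between windows. For log2 LSD1 to Input over peak-free windows that spread was 2.85 times the SD of counting.

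Across 196 edges of runs of 2 or more windows, the pooled change was gradual and extended outside the runs. The edges are borders of the 1 Mb windows and not the places where H3K4me2 peaks end. For the run on chromosome 5 that starts at 55000001, the last H3K4me2 peak before it ended at 54389537. Pooling such edges smooths the profile, so it does not show how sharp the change is at single runs. In the first 100 kb inside an edge LSD1 was at 0.649 of Input (0.638 to 0.661), and at 900 to 1000 kb inside at 0.568 (0.558 to 0.579), against 0.716 (0.704 to 0.728) in the last 100 kb outside and 0.901 (0.888 to 0.915) at 900 to 1000 kb outside. IgG was at 0.816 in the first 100 kb inside and 0.739 at 900 to 1000 kb inside, against 0.828 in the last 100 kb outside and 0.938 at 900 to 1000 kb outside. H3K4me2 was at 0.495 in the first 100 kb inside, against 0.613 in the last 100 kb outside, a step that the definition of a run brings with it. IgG had the smallest step at the edge itself.

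**Figure D4:**
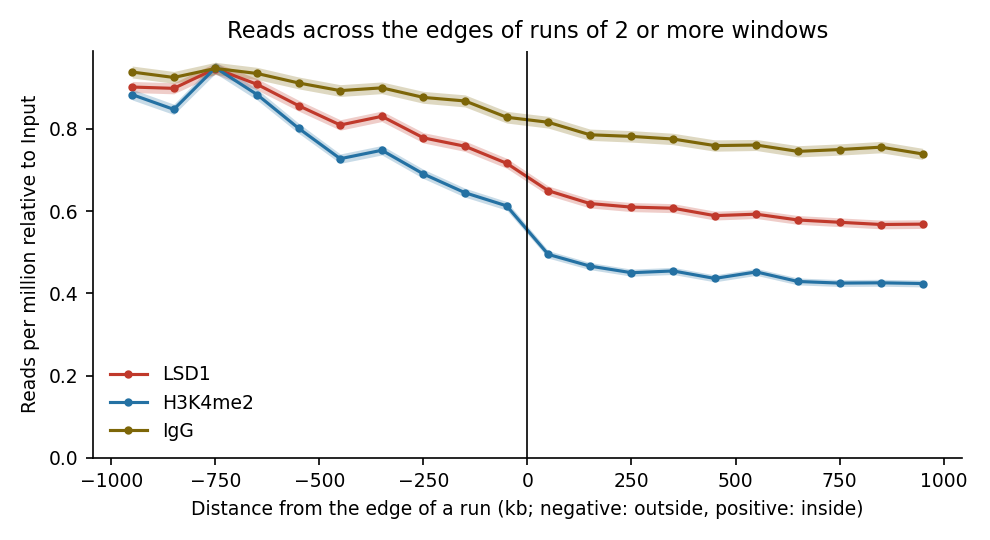
RPM relative to Input in bins of 100 kb from 1000 kb outside to 1000 kb inside the edges of runs of 2 or more peak-free windows (196 edges); lines are pooled ratios and bands exact 95% counting intervals. All 3 libraries are lower inside, with LSD1 at 0.568 in the innermost bin and 0.901 in the outermost.

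Distance to the nearest H3K4me2 peak showed the same at finer grain, over reads outside all peaks. In peak-free windows LSD1 was at 0.752 of Input (0.708 to 0.798) at 10 to 50 kb from a peak, 0.691 at 50 to 200 kb, 0.641 at 200 to 500 kb, 0.607 at 500 kb to 1 Mb, 0.569 at 1 to 2 Mb and 0.553 (0.545 to 0.560) beyond 2 Mb. Within the same bins of distance peak-free windows were below the others, though the bins are wide and distances inside them were not matched. At 200 to 500 kb LSD1 was at 0.641 (0.635 to 0.647) in peak-free windows and 0.701 (0.698 to 0.704) in the others. IgG was at 0.812 (0.804 to 0.819) and 0.872 (0.869 to 0.876). At 500 kb to 1 Mb LSD1 was at 0.607 (0.603 to 0.611) in peak-free windows and 0.634 (0.628 to 0.639) in the others. LSD1 to IgG differed less, at 0.790 (0.783 to 0.798) in peak-free windows and 0.804 (0.801 to 0.807) in the others at 200 to 500 kb.

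Reads of the immunoprecipitated libraries varied less between bins in peak-free windows, by a measure not adjusted for depth. The choice of windows without H3K4me2 peaks brings this with it for H3K4me2. Of the LSD1 peaks of the other windows, 92.1% touched an H3K4me2 peak, so the LSD1 value too is given as a description. The measure was the variance divided by the mean over bins of 10 kb, which is 1 for reads scattered at random. Its median for LSD1 was 1.91 in peak-free windows and 8.64 in the others. For H3K4me2 the medians were 2.10 in peak-free windows and 25.2 in the others, for IgG 1.72 and 2.42. For reads scattered less evenly than at random this measure also rises with the reads per bin. Peak-free windows held fewer reads per Mb in every library. How much of each difference is due to depth was not tested. Input, at 1.69 in peak-free windows and 1.63 in the others, did not follow that order. Bins of 1 kb without a read in any library made up a median of 8.0% of a peak-free window and 3.7% of another window, with extremes of 0.7% and 72.2% among the peak-free ones.

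A few narrow places in peak-free windows nevertheless held many reads. The fullest 1 kb bin was on chromosome 2 from 98502001 to 98503000, with 413 LSD1, 408 H3K4me2, 414 IgG and 424 Input reads, so that the read counts were alike although the libraries differ in size. On chromosome 4 from 79650001 to 79651000, inside a run of 6 windows, there were 423 LSD1, 299 H3K4me2, 286 IgG and 213 Input reads. These bins were high in Input as well as in the antibodies.

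Other bins held many H3K4me2 reads and few Input reads without lying in a called peak. Outside all peaks, 597 bins of 1 kb in peak-free windows held at least 10 H3K4me2 reads and fewer than 10 Input reads. They lay in 240 peak-free windows (56.9%, against 91.2% of all windows). The other 1953 windows held far more such bins, 76180 in 1927 windows. Of the 597 bins in peak-free windows, 103 held at least 20 H3K4me2 reads. The highest 3 were on chromosomes 9, 18 and 1. That of chromosome 9, from 16306001 to 16307000, held 21 LSD1, 34 H3K4me2, 3 IgG and 4 Input reads. That of chromosome 18, from 22503001 to 22504000, held 15 LSD1, 34 H3K4me2, 4 IgG and 7 Input reads, and that of chromosome 1, from 46951001 to 46952000, held 14 LSD1, 33 H3K4me2, 2 IgG and 7 Input reads. They were chosen after their values were seen. The bins were selected on H3K4me2 and Input reads, and reads inside called LSD1 and IgG peaks were left out, so the values that follow are a description. Over all 597 bins the LSD1 library was at 2.38 times IgG (2.25 to 2.52), and IgG was at 1.29 times Input (1.19 to 1.39), whereas over whole peak-free windows LSD1 was at 0.778 of IgG. Bins chosen in the same way in other windows had LSD1 at 1.90 times IgG (1.89 to 1.90). Single-window runs held 1.69 such bins per window and runs of 4 or more 1.32, so they were not confined to short runs.

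Called LSD1 peaks were rare. Of the 5082 LSD1 peaks centred in windows with enough Input reads, 10 (0.197%, exact interval 0.0944 to 0.362) lay in peak-free windows, or 0.0237 per Mb against 2.60 per Mb in the others. They were in 10 different windows (2.37% of 422, against 53.3% of all windows). Their median width was 357 bp, against 461.5 bp for the LSD1 peaks of other windows, and they held a median of 16.5 LSD1 and 1 IgG reads, against 19 and 3. None touched an H3K4me2 peak, which the choice of windows brings with it. The nearest H3K4me2 peak was between 282 and 1779 kb away. In the other windows 92.1% of LSD1 peaks touched an H3K4me2 peak, so the rarity of LSD1 peaks in peak-free windows is given as a description. Summed over the 10, the LSD1 library was at 5.35 times IgG (3.50 to 8.50) and the H3K4me2 library at 3.35 times IgG (2.16 to 5.39), against 4.48 and 5.27 times in the LSD1 peaks of other windows. These peaks were called on the LSD1 reads counted here, so the LSD1 values in them are a description.

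The LSD1 peak with the most reads was on chromosome 16 from 6348688 to 6349243, with 25 LSD1, 18 H3K4me2, 1 IgG and 0 Input reads. It lay 874.6 kb from the nearest H3K4me2 peak and its LSD1 reads were 20.4 times IgG (3.34 to 837). On chromosome 14 from 40286338 to 40286671 there were 18 LSD1 and 11 H3K4me2 reads and no IgG read, and the exact interval of LSD1 to IgG began at 3.58. A count of 18 LSD1 reads was also found on chromosome 17, from 91487479 to 91487929, with 11 H3K4me2 and 1 IgG reads, and on chromosome 8, from 39723298 to 39723782, with 10 H3K4me2 and 1 IgG reads.

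Chromosome 8 had 2 further peaks, from 84926788 to 84927186 and from 105307833 to 105308167, with 15 LSD1 and 2 IgG reads each and with 9 and 11 H3K4me2 reads. The peak on chromosome 6 from 45010088 to 45010460 held 13 LSD1, 5 H3K4me2 and 1 IgG reads, the fewest H3K4me2 reads of the 10. On chromosome 3, from 64912902 to 64913242, there were 12 LSD1, 15 H3K4me2 and 1 IgG reads, the only case with more H3K4me2 than LSD1 reads. The peak in the run of 5 windows on chromosome 1, from 25886688 to 25887025, was the smallest by LSD1 reads, with 11 LSD1, 10 H3K4me2 and 1 IgG reads, and lay 1779 kb from any H3K4me2 peak, the farthest of all. LSD1 exceeded IgG beyond its counting interval in 9 of the 10, against 89.7% of all 5082 LSD1 peaks.

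The exception was the LSD1 peak on chromosome 1 from 124253684 to 124253899, with 19 LSD1, 13 H3K4me2, 15 IgG and 1 Input reads, where LSD1 was at 1.03 times IgG (0.497 to 2.18). It was the only one of the 10 that touched an IgG peak. Over the other 9 peaks LSD1 was at 11.8 times IgG (6.25 to 25.2) and H3K4me2 at 7.41 times (3.87 to 15.9), since 15 of the 25 IgG reads of the 10 peaks lay in this one.

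**Figure D5:**
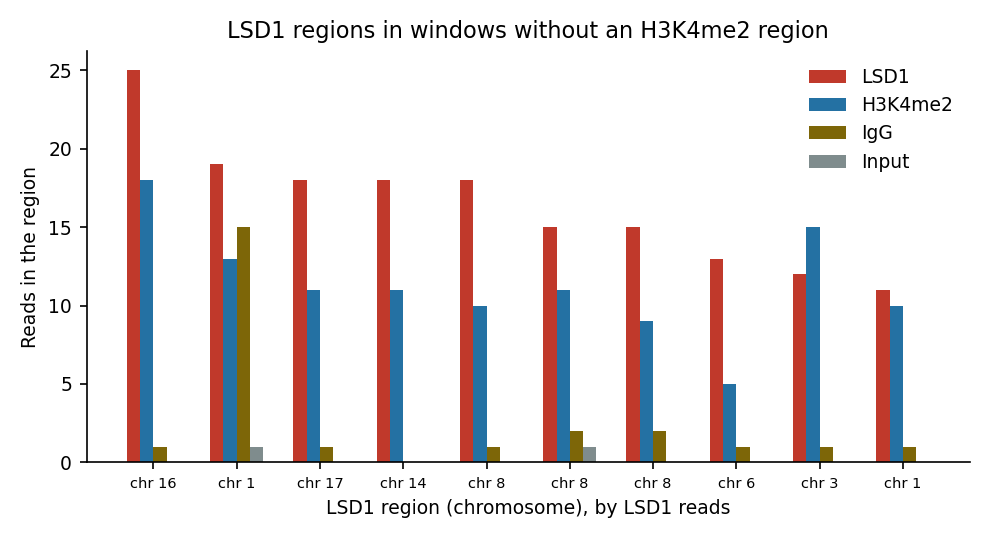
Reads of the LSD1, H3K4me2, IgG and Input libraries in each of the 10 LSD1 peaks in peak-free windows, named by chromosome and ordered by LSD1 reads from 25 down to 11. IgG reads number 0 to 2 in 9 of the peaks and 15 in the second from the left, on chromosome 1.

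The IgG list had 8 peaks in peak-free windows, in 1.9% of the 422 windows against 4.8% of all windows. They were 42 to 69 bp wide. With read starts moved by 100 bp they held 1 H3K4me2 read and no read of another library. Reads sharing a base with them were therefore counted instead. The IgG peak with the most such reads, on chromosome 11 from 25000146 to 25000207, had 10 LSD1, 4 H3K4me2, 29 IgG and 0 Input reads. On chromosome 6 there were 2 IgG peaks, from 69466331 to 69466399 with 4 LSD1, 6 H3K4me2 and 25 IgG reads and from 132413781 to 132413822 with 5 LSD1, 5 H3K4me2 and 9 IgG reads. The IgG peak of chromosome 3, from 39901934 to 39901986, had 4 LSD1, 4 H3K4me2 and 18 IgG reads, and that of chromosome 2, from 47155257 to 47155301, had 2 LSD1, 1 H3K4me2 and 10 IgG reads. Chromosome 5 contributed 2, from 19388751 to 19388794 with 4 LSD1, 4 H3K4me2 and 8 IgG reads and from 80357428 to 80357475 with 2 LSD1, 1 H3K4me2 and 8 IgG reads. In these 7 IgG peaks the IgG reads outnumbered those of every other library, and Input had none. The exception was again chromosome 1, from 124253763 to 124253823, inside the LSD1 peak described above, with 19 LSD1, 12 H3K4me2, 15 IgG and 1 Input reads. All 8 peaks come from the list of the IgG library counted here, so the IgG values in them are a description.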

How the data were processed

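The authors deposited aligned reads of 4 libraries, 1 line of count 1 per read of 36 bases, and peak lists of positions for LSD1, H3K4me2 and IgG. Per the submitters' processing notes the build is mm9, while the aligner, the peak caller and its settings were not given in the sources used here. Each read start was moved 100 bp along its strand. Autosomal windows of 1 Mb with at least 500 Input reads and no H3K4me2 peak centre were kept; the nearest to that minimum held 503 Input reads inside and 492 outside. Of the windows, 107 fell below it, 64 of them without any Input read. Ratios of RPM carry exact Clopper-Pearson 95% intervals, given the total of the 2 counts, and were checked on simulated data. A read count of 0 allows 3 reads, or 0.631 RPM in IgG.

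Named were the 10 longest runs, the 3 windows at either end of LSD1 to Input, every LSD1 and IgG peak in the windows, and the chromosomes with the highest and lowest share of them. Windows, lists and comparisons were chosen with earlier results of these data known. No gene, GC content or sequence is given, because no mm9 genome or annotation was used here. No test between groups was made. Tools were Python 3.11.15 with scipy 1.17.1, numpy 2.4.6, matplotlib 3.10.9 and pandas 2.3.3.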

Additional observations from a re-analysis of the deposited data

How the results depend on the processing

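No paired analysis was possible because there was 1 library of each kind. Over 8 results, 72 alternative values were computed, of which 51 stayed within the interval (counts within 1.5 times) and 21 moved. Some of the 51 could not move. No H3K4me2 peak edge reached a peak-free window, so excluding any base of a peak changed nothing. Scaling cannot change the Mb, the longest run or the count of LSD1 peaks. The 36 ratios were all below 1, and those of H3K4me2 to Input lie in windows chosen on that library. Leaving out windows with an LSD1 or IgG peak, which brings LSD1 peaks to 0 by construction, and applying the alternatives to the count of windows below 0.8, were chosen after seeing the data, as were leaving out the LSD1 peak that touches an IgG peak (LSD1 at 11.8 times IgG in place of 5.35) and the longest run (LSD1 at 0.557 of Input in the innermost windows in place of 0.549). Windows of 500 kb gave 735 Mb, 20 LSD1 peaks and 1348 windows below 0.8, or 91.7% of peak-free windows against 41.4% of all windows. The ratios at 500 kb were 0.638 for LSD1 to Input, 0.807 for IgG to Input, 0.790 for LSD1 to IgG and 0.479 for H3K4me2 to Input. Windows of 2 Mb gave 182 Mb, 4 LSD1 peaks and, in the same order, 0.581, 0.752, 0.772 and 0.434. At 2 Mb 91 windows were below 0.8, or 100% of peak-free windows against 34.2% of all windows. Scaling to reads outside peaks gave 0.660, 0.784, 0.842 and 0.553, with 398 windows below 0.8 against 29.6% of all windows. Windows starting 500 kb later gave 0.603 for LSD1 to Input and 0.451 for H3K4me2 to Input, and a longest run of 11 Mb. Starts not moved, a minimum of 1000 Input reads, no base of an H3K4me2 peak and dense bins left out moved none of the 8 results. About 1250 Input reads per window limit single-window ratios.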
